A study of Physcomitrium patens with 47 samples.

Results

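The 150 genes described here are those of the moss Physcomitrium patens whose messenger RNA fell in 2 successive steps over the first 6 h of light in wild-type (WT) plants. Levels were taken as CPM (a gene's count scaled to a library with 1000000 counts in genes) and averaged as log2(CPM + 1). A gene was eligible when its highest WT group mean reached 10 CPM, its mean over all WT libraries lay under 1000 CPM, and its identifier (ID) did not begin with Pp3c2_, Pp3c25_ or Pp3c27_. Of 32926 genes, 11600 were eligible. In 179 of them the WT mean fell by at least 0.5 log2 units from zeitgeber time 0 (ZT0, lights on) to ZT2 and again by at least 0.5 from ZT2 to ZT6. The 150 with the largest value of their smaller step were kept, so the genes were chosen by their WT levels at the 3 times.

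In plants, large parts of the transcriptome change between the end of the night and the middle of the day. Such changes are known to depend on the circadian clock, on light sensed by photoreceptors, and on the sugar made by photosynthesis or released from stored starch. Mitochondrial respiration supplies energy from stored carbon in the dark and works alongside the chloroplast in the light. COX11 is needed to build cytochrome c oxidase, the last complex of the respiratory chain, because it delivers copper to that enzyme. NDUFA5 is a part of complex I, the entry point of electrons from NADH.

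Transcripts were counted in WT plants, in plants with a disrupted COX11 gene (COX11 KO, lines 150 and 152) and in plants with a disrupted NDUFA5 gene (NDUFA5 KO, lines 46 and 48), each gene being interrupted by an antibiotic resistance cassette. Protonema, the filaments of the young moss, and young gametophores, its leafy shoots, were grown together for 15 days in cycles of 12 h light and 12 h dark. Plants were frozen at ZT0, ZT2 or ZT6, giving 6, 4 and 8 WT libraries, 5 COX11 KO libraries at each time, and 4, 5 and 5 NDUFA5 KO libraries. At ZT0 the boxes had been in foil since the start of the night and plants were frozen under dim green light, so that time and handling cannot be told apart between ZT0 and the later times. Each knockout is represented by 2 lines. The labels do not say that libraries of a group came from separate cultures, so p-values measure the spread between libraries, which may be technical. One NDUFA5 KO library at ZT6, 46-3, is given line 46 in one label and line 48 in another, and the first was followed. In whole-plant RNA, fewer cells of a type and less RNA per cell cannot be told apart.

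The libraries held 4060158 to 10349604 counts in genes (median 5659267). The highest total belonged to NDUFA5 KO 46-2 at ZT0, and the next lay at 6714980. Reads came from the 3′ ends of transcripts, so a gene's CPM does not scale with its length. Each sample has a code with the letter A or Z, whose meaning the labels leave out. In WT, all 6 ZT0 libraries carry Z and all 4 ZT2 libraries carry A, so the WT step from ZT0 to ZT2 and the letter cannot be told apart. COX11 KO has 5 Z libraries at ZT0, 4 A and 1 Z at ZT2, and 1 A and 4 Z at ZT6. Both of its steps are therefore largely tied to the letter as well. No table used here gives names for the IDs, so COX11, NDUFA5 and tissue markers were not checked by name, and genes are described by their ID.

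The WT values chose the genes and are given as a description. On the scale of the rule, the first step ranged from 0.55 to 3.93 log2 units with a median of 0.87, and the second from 0.55 to 4.45 with a median of 0.80. The first step was the larger in 87 genes and the second in 63, and in 64 genes the steps lay within 0.25 of each other. The smaller step had a median of 0.66 and reached 2.49 in Pp3c7_400. At the end of the list, Pp3c13_12610 and Pp3c22_2520 had smaller steps of 0.5466 and 0.5458, and the first genes left out, Pp3c4_7970 and Pp3c3_2690, had 0.5455 and 0.5423. Its members carry 26 different ID prefixes, with 12 genes under Pp3c1, 12 under Pp3c3 and 11 under Pp3c10.

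Together the 150 genes held 1.93% ± 0.249 of the counts in the WT libraries of ZT0 (SD, n = 6), 0.964% ± 0.0398 in those of ZT2 (n = 4) and 0.537% ± 0.0175 in those of ZT6 (n = 8). From here on, CPM values use library totals scaled by the trimmed mean of M values (TMM). WT group means ran from 10.8 to 1710 CPM at ZT0, with a median of 61.3, and from 1.11 to 622 CPM at ZT6, with a median of 15.2. The libraries of WT at ZT0 were uneven for these genes. The median SD within the group was 0.464 on the log2(CPM + 1) scale against 0.323 over all 18460 tested genes, and 17 of the 150 genes had an SD above 1. At ZT2 the median SD was 0.218 against 0.189, and at ZT6 it was 0.35 against 0.25.

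**Figure D1:**
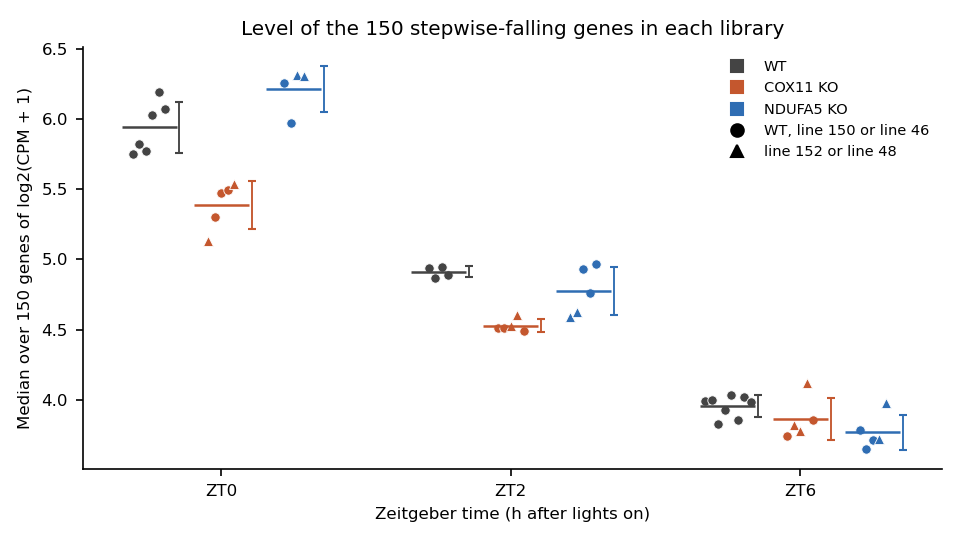
Median log2(CPM + 1) over the 150 genes in each of the 47 libraries, by time (x axis) and genotype (colour), with circles and triangles for the 2 lines of a knockout. Horizontal lines are group means and bars are the SD. In every genotype the ZT0 libraries lie above those at ZT2 and these above those at ZT6, and NDUFA5 KO at ZT0 lies above COX11 KO.

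The 2 most abundant genes at ZT0 show the pattern at high counts. Pp3s128_50 had between 1420 and 1980 CPM in the 6 WT libraries at ZT0, between 874 and 993 in the 4 at ZT2, and between 408 and 736 in the 8 at ZT6. Pp3c14_23460 had 1040 to 1640 CPM in WT at ZT0 (mean 1270 ± 228, SD), 641 to 807 at ZT2 and 308 to 593 at ZT6. For both genes the WT libraries of the 3 times did not overlap.

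The first 6 genes by the rule fell further. Pp3c7_400 fell from 114 ± 29.8 CPM in WT at ZT0 (SD, n = 6) to 18.7 ± 3.36 at ZT2 (n = 4) and 2.46 ± 0.833 at ZT6 (n = 8). Pp3c22_21630 went from 168 ± 35 to 58.4 ± 10.1 and 15.2 ± 4.26 CPM. Pp3c1_25080 went from 142 ± 50.4 to 50 ± 9.34 and 5.91 ± 2.11 CPM. In these genes no WT library of one time reached the next. Pp3c1_24420 had 30.5 ± 10.5, 9.55 ± 1.01 and 2.94 ± 0.629 CPM, and Pp3c16_14400 had 92.1 ± 39, 28.5 ± 2.17 and 10.7 ± 3.52 CPM. Pp3c4_3930 was less even, with 63.6 ± 55.5 CPM at ZT0, where its libraries ran from 10.8 to 144, then 11.9 ± 4.19 and 4.44 ± 3.04 CPM, and its libraries of successive times overlapped.

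The knockout libraries had no part in the choice of the genes, so their time courses were tested with edgeR's quasi-likelihood F test, with p-values adjusted by Benjamini-Hochberg over 18460 genes in each contrast and genes called at a false discovery rate of 0.05. All 150 genes passed the filter on low counts, and the floor of 10 CPM in WT makes this likely by itself.

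In COX11 KO, 113 of the 150 genes were called lower at ZT2 than at ZT0 and 0 were called higher. Of all tested genes, 23.7% were lower and 22.7% higher. With edgeR and with DESeq2, 1 gene was higher at an unadjusted p under 0.05. The median change was -0.99 log2 units, against -0.03 over all genes. Within libraries of code letter Z, of which COX11 KO has 1 at ZT2, the median change was -1.02, and fewer genes were called lower than over all libraries.

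From ZT2 to ZT6, 61 of the 150 genes were lower in COX11 KO and 14 higher, where 19% of all genes were lower and 17.7% higher. The median change was -0.51, with quartiles of -0.93 and 0.02. With letter Z alone, 20 were lower and 2 higher (5.02% and 2.65% of all genes), and the median was -0.40. Over the whole interval from ZT0 to ZT6, 126 genes were lower and 5 higher, against 27.1% and 24% of all genes, with a median of -1.41. With letter Z alone these counts were 119 and 3, beside 24.1% and 21.4% of all genes. The 5 higher genes became 3 without the ZT0 library 150-1, 150-3 or 152-1, and 2 without the ZT6 library 152-3. By step, and with both steps sharing the ZT2 libraries, 50 genes were lower at each step (2.39% of all genes), 63 at the first only (21.3%), 11 at the second only (16.6%) and 26 at neither (59.7%). Of these 26, 10 were lower over the whole interval, a path of 4.1% of all genes.

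In NDUFA5 KO, 108 of the 150 genes were lower at ZT2 than at ZT0 and 7 higher, against 29.1% and 31.1% of all genes. The median change was -1.23, where that of all genes was 0.06. With library totals in place of TMM, 95 were lower and 13 higher, and the shares of all genes above do not apply to that scaling. It moved the median of all genes to 0.348. The 150 genes minus all genes came to -1.293, against -1.285 with TMM. From ZT2 to ZT6, 96 were lower and 5 higher (27.2% and 24.1% of all genes), with a median of -0.83. From ZT0 to ZT6, 130 were lower and 4 higher (34.9% and 37.1% of all genes), with a median of -2.0. Within letter Z the counts for the first step were 103 and 9, beside 24.8% and 24.6% of all genes. For the second they were 89 and 4, beside 23.6% and 21.2%, and for the whole interval 128 and 3, beside 32.3% and 34.2%. Both steps were called lower in 69 genes (8.88% of all genes), the first only in 39 (20.2%), the second only in 27 (18.3%) and neither in 15 (52.7%). Of the 15, 4 were lower over the whole interval (2.17% of all genes).

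**Figure D2:**
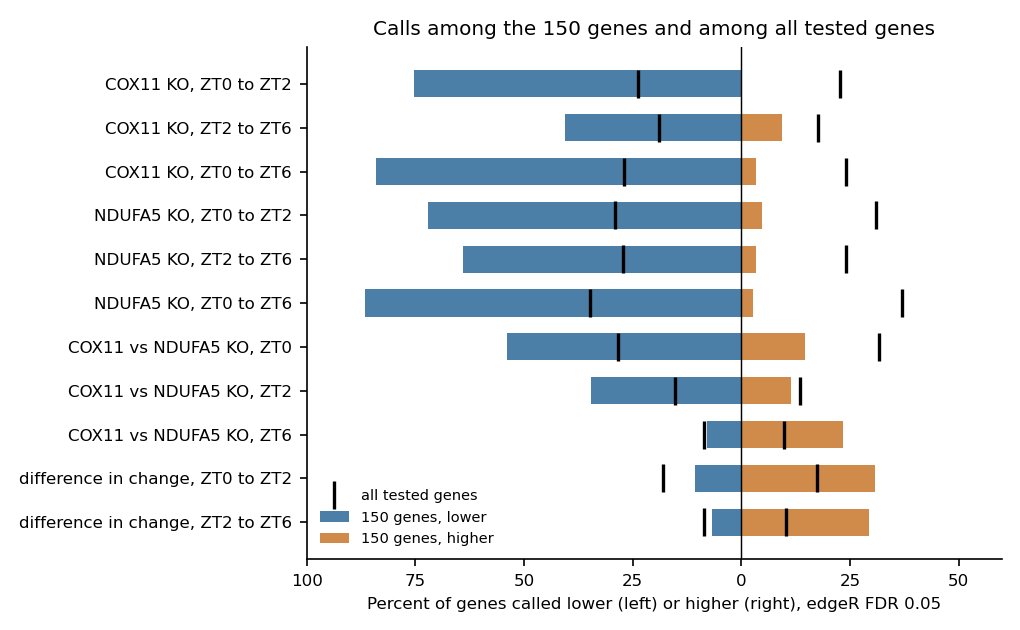
Percent of the 150 genes called lower (blue, left) or higher (orange, right) at a false discovery rate of 0.05 in each tested contrast, with black ticks for the percent of all 18460 tested genes. The 6 rows at the top compare times within a knockout, the next 3 compare the knockouts at one time (lower means lower in COX11 KO), and the last 2 compare their changes. In the 6 time contrasts the blue bars pass the ticks and the orange bars stop short of them, as in COX11 KO from ZT0 to ZT6 with 126 genes lower and 5 higher.

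The share of counts in the 150 genes followed the same order. In COX11 KO the ZT0, ZT2 and ZT6 libraries averaged 1.36% ± 0.138, 0.748% ± 0.0155 and 0.624% ± 0.0669 (SD, n = 5 each). In NDUFA5 KO it was 2.43% ± 0.111 (n = 4), 1.05% ± 0.0891 (n = 5) and 0.526% ± 0.0125 (n = 5). Within each knockout the libraries of the 3 times did not overlap in this share. Both lines of a knockout showed the fall: the mean of line 150 fell at both steps in 104 of the 150 genes and that of line 152 in 94, and lines 46 and 48 did so in 110 each. These counts took a fall of any size without a test, and the same count over all genes was not taken. At ZT2 in NDUFA5 KO the line and the code letter cannot be told apart, since line 46 has only letter Z and line 48 only letter A. The median level of the 150 genes there was 4.76 to 4.97 on the log2(CPM + 1) scale in the 3 libraries of line 46 and 4.59 to 4.62 in the 2 of line 48.

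**Figure D3:**
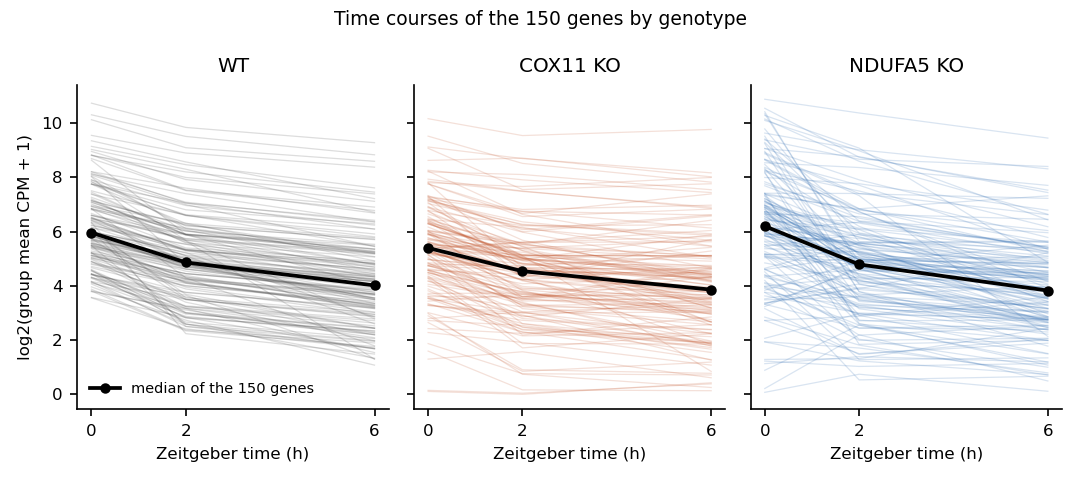
Group mean of each of the 150 genes, as log2(mean CPM + 1), against zeitgeber time in WT, COX11 KO and NDUFA5 KO. Thin lines are genes and the thick line is their median. WT lines fall at both steps by the rule that chose them, whereas some knockout lines are flat or rise, such as Pp3c3_32550 in COX11 KO.

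The median change from ZT0 to ZT6 in the knockouts was largest at the head of the list. Among ranks 1 to 50 of the rule, 47 were lower from ZT0 to ZT6 in COX11 KO and 46 in NDUFA5 KO, with median changes of -2.07 and -3.06. Of all genes, 27.1% and 34.9% were lower. Among ranks 51 to 100 the counts were 37 and 41, with medians of -1.12 and -1.64, and among ranks 101 to 150 they were 42 and 43, with medians of -1.12 and -1.95. Across the 150 genes, the WT change from ZT0 to ZT6 had a Spearman correlation of 0.58 with the change in COX11 KO and 0.39 with that in NDUFA5 KO. For the first step alone the correlations were 0.53 and 0.32, and for the second 0.30 and 0.37. These are descriptions over genes that share libraries, within the range that the rule left, and the same over all genes was not taken.

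Both knockouts were called lower from ZT0 to ZT6 in 111 genes (17.3% of all genes). This is 88.1% of the COX11 KO calls and 85.4% of the NDUFA5 KO calls, and counts of 126 and 130 out of 150 can overlap in no fewer than 106. A further 15 genes were lower in COX11 KO and not called lower in NDUFA5 KO (9.76% of all genes), 19 the other way round (17.6%), and 5 were lower in neither (55.3%). The changes themselves had a Spearman correlation of 0.25 across the 150 genes, and of 0.50 across all 18460 tested genes. All 4 steps were called lower in 27 genes (0.975% of all genes). Pp3c12_22760, Pp3c14_25720 and Pp3c26_15000 were the 3 genes not called lower in any time contrast of either knockout, as was the case for 37.8% of all genes.

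**Figure D4:**
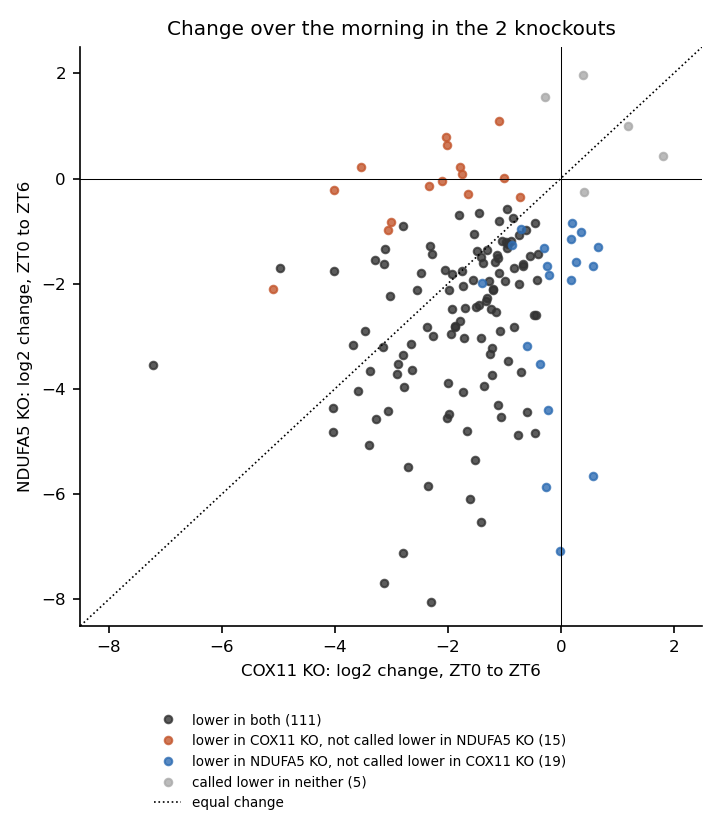
Log2 change from ZT0 to ZT6 in COX11 KO (x axis) and NDUFA5 KO (y axis) for the 150 genes, coloured by the calls in each knockout. The dotted line marks equal change. Most points lie in the lower left, 111 genes being called lower in both, and the changes reach further down in NDUFA5 KO, to -8.05, than in COX11 KO, to -7.21.

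Among the first genes of the rule, Pp3c22_21630 fell at every step of both knockouts. The COX11 KO libraries of ZT0 had 81.4, 84.7, 87.7, 95.5 and 95.8 CPM, those of ZT2 33.2, 39.1, 39.3, 39.6 and 40.9, and those of ZT6 5.44, 7.93, 8.03, 8.87 and 10.1. In NDUFA5 KO it had 34.7, 79.8, 85.4 and 117 CPM at ZT0, 21.9, 31.6, 40.1, 52.1 and 63.1 at ZT2, then 5.61, 6.36, 8.21, 8.63 and 23.5 at ZT6. The times did not overlap in COX11 KO. In NDUFA5 KO library 46-2 at ZT0 lay among the ZT2 libraries, and 48-2 at ZT6 lay above the lowest of ZT2. The changes were -1.21 ± 0.265 and -2.25 ± 0.296 log2 units (standard error) in COX11 KO, with adjusted p of 0.000214 and 7.94e-08. In NDUFA5 KO they were -0.92 ± 0.278 and -1.99 ± 0.289, with adjusted p of 0.00436 and 2.39e-07.

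Pp3c1_24420 was called lower at a different step in each knockout. It had 4.27, 7.79, 9.43, 11 and 11.3 CPM in COX11 KO at ZT0, 4.99 to 7.44 at ZT2 and 1.98 to 3.7 at ZT6, and its call came at the second step (-1.30 ± 0.272, adjusted p = 0.000183). In NDUFA5 KO it had 12.5, 13.1, 15.2 and 17 CPM at ZT0, 1.99 to 7.25 at ZT2 and 2.97 to 5.62 at ZT6, and its call came at the first step (-1.70 ± 0.258, adjusted p = 2.93e-07). Its ZT2 libraries split by line, with 1.99, 3.1 and 3.73 CPM in line 46 and 6.12 and 7.25 in line 48. Those of line 48 lay inside the COX11 KO range, and this line was lower again at ZT6, with 4.1 and 4.3 CPM. The low ZT2 level was thus that of line 46, and line and code letter cannot be told apart there. Both steps differed between the knockouts, by 1.25 ± 0.354 (adjusted p = 0.00507) and -1.24 ± 0.381 (adjusted p = 0.017). Both tests use the same ZT2 libraries and are not independent. At ZT2 itself the difference of COX11 KO from NDUFA5 KO was 0.54 ± 0.255 (adjusted p = 0.108), beside -0.712 at ZT0 and -0.705 at ZT6. Pp3c4_3930 fell at the first step of both, from 5.27 ± 1.6 to 0.801 ± 0.585 CPM in COX11 KO and from 21.9 ± 14.3 to 1.43 ± 1.18 CPM in NDUFA5 KO, and did not pass the test at the second in either (adjusted p = 0.624 and 0.968).

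Pp3c14_23460 kept its stepwise fall at high level. COX11 KO had 384, 552, 579, 609 and 663 CPM at ZT0, 394, 403, 409, 420 and 443 at ZT2, then 202, 298, 299, 315 and 320 at ZT6. NDUFA5 KO had 684, 788, 816 and 892 CPM at ZT0, 452, 490, 514, 529 and 610 at ZT2, then 240, 275, 344, 356 and 378 at ZT6. The groups did not overlap in NDUFA5 KO, and in COX11 KO library 150-2 at ZT0 lay below all ZT2 libraries. The 4 changes ran from -0.43 ± 0.151 (adjusted p = 0.0179, COX11 KO, first step) to -0.70 ± 0.152 (adjusted p = 0.00015, NDUFA5 KO, second step).

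The largest fall in COX11 KO was that of Pp3c3_37540. It had 112, 115, 118, 125 and 132 CPM at ZT0, 21.8, 24.9, 32.9, 36.8 and 51 at ZT2, then 0.348, 0.465, 0.765, 0.824 and 1.59 at ZT6. Its change was -1.85 ± 0.237 at the first step (adjusted p = 1.9e-08) and -5.37 ± 0.361 at the second (adjusted p = 9.03e-16). NDUFA5 KO ended higher, with 2.58, 4.31, 6.46, 6.71 and 11.4 CPM at ZT6, above every COX11 KO library, and the knockouts differed there by -2.96 ± 0.408 (adjusted p = 1.51e-06). The 8 WT libraries had 0.435 to 4.16 CPM, with a median of 1.16, and overlapped with both knockouts.

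Pp3c1_470 also lost most of its level in the second step of COX11 KO, from 43.1 ± 13.7 to 5.3 ± 1.77 CPM (SD, n = 5), a change of -3.03 ± 0.439 (adjusted p = 5.6e-07). WT libraries fell to 47 to 102 CPM at ZT6, above all 10 knockout libraries, which had 3.52 to 9.4 CPM. With letter Z alone the second step in COX11 KO was -1.90, with an adjusted p of 0.122. At the first step in COX11 KO, Pp3c17_23620 fell from 2.02 ± 1.36 to 0.121 ± 0.198 CPM and Pp3c8_4130 from 6.88 ± 9.19 to 0.671 ± 0.333 CPM. These values stand on few counts (55 for Pp3c17_23620 over the 5 libraries at ZT0). Within letter Z, with 1 COX11 KO library at ZT2, the changes were -6.45 and -4.35 with adjusted p of 0.0768 and 0.167, against -3.83 and -3.28 over all libraries. The call of Pp3c8_4130 was lost without the ZT0 library 150-1 (-2.17, adjusted p = 0.0583).

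A minority did not follow the fall in COX11 KO. Pp3c3_32550 had 30.7, 34.9, 41.4, 47.2 and 51.2 CPM at ZT0, 39.5, 43.6, 47.1, 49.3 and 59.4 at ZT2, then 51.8, 59.5, 61, 71.4 and 81.5 at ZT6. All ZT6 libraries lay above all ZT0 libraries, and the rise from ZT0 to ZT6 was 0.66 ± 0.134 (adjusted p = 6.59e-05). In NDUFA5 KO the same gene had 81.7 to 107 CPM at ZT0, 82.1 to 101 at ZT2 and 30.1 to 50.2 at ZT6, so that its fall came after ZT2 (-1.22 ± 0.134, adjusted p = 6.34e-10). Its second step differed between the knockouts by 1.66 ± 0.189 (adjusted p = 1.51e-08). WT levels went from 96.4 ± 14.6 to 59.4 ± 2.69 and 36.8 ± 4.4 CPM.

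Pp3c3_29500 showed a smaller rise in COX11 KO, from 5.94 ± 1.34 CPM at ZT0 to 8.9 ± 2.6 at ZT6 (0.57 ± 0.214, adjusted p = 0.023). It missed the threshold when ZT0 library 150-3 or 152-1, or ZT6 library 150-1 or 152-3, was left out (0.42 to 0.52, adjusted p 0.0571 to 0.109). The same held within letter Z (0.51, adjusted p = 0.0831) and with the replicate block (0.42, adjusted p = 0.132). The other genes higher at ZT6 than ZT0 in COX11 KO, listed after their values were seen, were Pp3c21_9570, Pp3c10_15650 and Pp3c20_22730. The last 2 went from 26.6 to 34 CPM and from 43.6 to 58.3 CPM in COX11 KO, and from 51.2 to 20.1 and 88.9 to 27.4 CPM in WT.

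A fall and then a rise was called in 11 of the 150 genes in COX11 KO, close to its share among all genes (6.31%). The path therefore does not set the list apart in COX11 KO, and the shares were not tested against each other. It was taken by 2 of the 150 genes in NDUFA5 KO (5.5% of all genes). Pp3c22_22960 had 75.4, 99, 117, 207 and 290 CPM at ZT0, 14.3, 16.2, 20, 20.3 and 22.9 at ZT2, then 42.8, 47.9, 54.9, 55.7 and 56 at ZT6 in COX11 KO. The second step was 1.46 ± 0.367 (adjusted p = 0.00161), and 1.19 with an adjusted p of 0.401 within letter Z. Pp3c21_9570 had 13.3 to 19.6 CPM at ZT0, 8.35 to 11.4 at ZT2 and 18.4 to 26.8 at ZT6, with a second step of 1.16 ± 0.243 (adjusted p = 0.000199), and 1.56 with an adjusted p of 0.0584 within letter Z. For both genes every ZT6 library lay above every ZT2 library.

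In NDUFA5 KO 4 genes were higher at ZT6 than at ZT0. Pp3c26_15000 had 5.86, 7.24, 8.21 and 15.8 CPM at ZT0, 7.17, 8.03, 8.52, 11.9 and 33.8 at ZT2, then 21.8, 25.3, 35.2, 35.3 and 63.8 at ZT6. Its ZT6 libraries lay above all ZT0 libraries, a rise of 1.97 ± 0.458 (adjusted p = 0.000201), and WT fell from 215 ± 76.9 to 84.7 ± 42.5 CPM. Pp3c12_22760 rose from 1.44 ± 0.657 to 4.42 ± 1.95 CPM (1.54 ± 0.506, adjusted p = 0.00649), where WT fell from 26.7 ± 9.6 to 8.34 ± 3.55 CPM. The others, listed after their values were seen, were Pp3c18_3830, from 13.3 to 20.9 CPM, and Pp3c26_11400, from 5.61 to 9.6 CPM. All 4 had started at a lower mean in NDUFA5 KO than in either other genotype.

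In NDUFA5 KO 6 genes were called higher at the first step and lower at the second (9.39% of all genes). Pp3c16_14400 had 3.82, 8.11, 9.3 and 14.7 CPM at ZT0, 9.98, 13.1, 21.2, 35.5 and 37 at ZT2, then 2.67, 4.12, 4.64, 8.36 and 16.9 at ZT6. The times overlapped, and its ZT2 libraries of line 46 were the 3 highest. It rose by 1.43 ± 0.42 (adjusted p = 0.00331) and then changed by -1.65 ± 0.389 (adjusted p = 0.000456). Pp3c24_30 went from 8.44 ± 1.6 to 24.7 ± 12.4 and 9.75 ± 4.07 CPM, again highest in line 46 at ZT2 with 26.1, 36.5 and 36.6 CPM against 8.85 and 15.5 in line 48. In Pp3c20_20860 the order of lines was the other way, with 2.72, 3.26 and 3.73 CPM in line 46 and 4.49 and 10.1 in line 48 at ZT2, all above the 0.404 to 1.45 CPM of ZT0.

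**Figure D5:**
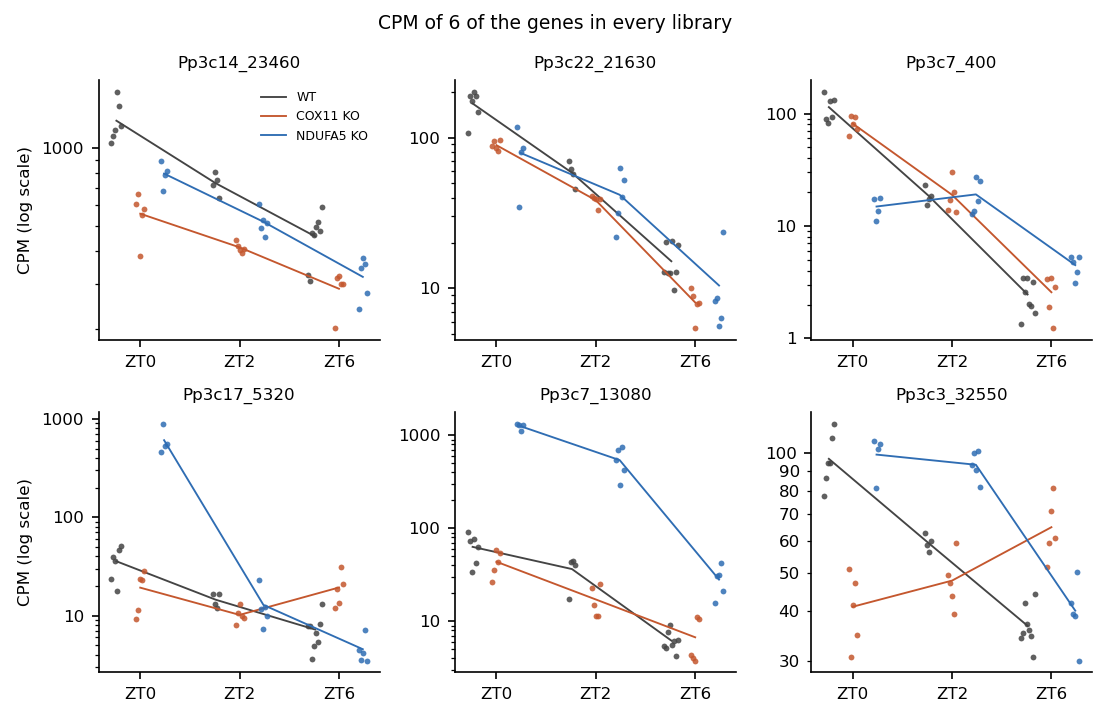
CPM (log axis) of 6 of the genes in every library by time and genotype, with lines through the group means. Pp3c14_23460 and Pp3c22_21630 fall at both steps in the 3 genotypes. Pp3c7_400 is low in NDUFA5 KO at ZT0, at 11 to 17.6 CPM, Pp3c17_5320 and Pp3c7_13080 are high there, at 457 to 886 and 1120 to 1320 CPM, and Pp3c3_32550 rises in COX11 KO.

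The knockouts were compared at each time. At ZT0, 81 of the 150 genes were lower in COX11 KO than in NDUFA5 KO and 22 higher, against 28.4% and 31.6% of all genes. The median difference was -0.70, where that of all genes was 0.09. Within letter Z the counts were 79 and 21, beside 26.4% and 28.6% of all genes. With library totals in place of TMM, over all libraries, the counts were 67 and 37, and the shares of all genes above do not apply to that scaling. That scaling moved the median of all genes to 0.48 and that of the 150 genes to -0.30, and the 150 genes minus all genes then came to -0.78, against -0.79 with TMM. Differences of at least 4-fold were called in 25 genes lower in COX11 KO and 7 higher. The share of all genes at this size was not taken, so these 2 counts have no background beside them.

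Among the 25, Pp3c17_5320 and Pp3c14_20840 had the most negative differences that met the rule for named genes. Pp3c17_5320 had 457, 532, 554 and 886 CPM in NDUFA5 KO, 9.25, 11.4, 23.1, 23.6 and 28.7 in COX11 KO, and 17.7 to 50.4 with a mean of 35.6 ± 12.9 in WT (SD, n = 6). By ZT2 the 3 genotypes lay between 7.25 and 23 CPM. Every NDUFA5 KO library was above every other library at ZT0, and the knockouts differed by -4.96 ± 0.327 (adjusted p = 8.94e-17). Pp3c14_20840 had 227, 307, 405 and 484 CPM in NDUFA5 KO and 5.09, 7.37, 9.16, 11.1 and 16.4 in COX11 KO, a difference of -5.19 ± 0.452 (adjusted p = 4.18e-13), beside 10.9 ± 5.85 in WT. In COX11 KO this gene did not pass the test at either step.

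Pp3c7_13080 and Pp3c13_5870 were still far above WT in NDUFA5 KO at ZT2. Pp3c7_13080 had 1120, 1280, 1300 and 1320 CPM at ZT0, 293, 426, 541, 687 and 757 at ZT2, then 15.7, 21.2, 30.5, 31.3 and 42 at ZT6. The step from ZT2 to ZT6 was -4.27 ± 0.327 (adjusted p = 3.96e-14), and WT had 63.2 ± 21.5, 36.5 ± 13 and 6.22 ± 1.57 CPM. Pp3c13_5870 had 338, 387, 495 and 653 CPM at ZT0, 141, 145, 156, 169 and 187 at ZT2, then 1.52, 1.82, 3.69, 4 and 5.94 at ZT6. Its second step was -5.56 ± 0.407 (adjusted p = 1.11e-14), and at ZT2 the difference of COX11 KO from NDUFA5 KO was -5.12 ± 0.391 (adjusted p = 8.48e-14). In both genes the 3 times did not overlap in NDUFA5 KO.

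The steepest first steps in NDUFA5 KO were those of Pp3c15_8180, from 170 ± 31.7 to 2.59 ± 1.05 CPM (-6.02 ± 0.394, adjusted p = 4.79e-17), and Pp3c18_7090, from 292 ± 75.6 to 5.12 ± 0.679 CPM (-5.83 ± 0.321, adjusted p = 1.84e-19). Pp3c18_7090 reached 1.11 ± 0.583 CPM at ZT6, the largest fall of the 150 genes over the morning (-8.05 ± 0.381). Pp3c1_25080 had 475, 495, 496 and 527 CPM at ZT0 and 0.33, 1.6, 3.04, 3.48 and 3.69 at ZT6, a change of -7.69 ± 0.477 (adjusted p = 4.34e-18). In COX11 KO the same gene went from 109 ± 31.1 to 12.5 ± 8.47 CPM, and at ZT6 it was higher there by 2.37 ± 0.453 (adjusted p = 0.000238). Pp3c22_22960 began at 1260, 1330, 1400 and 1500 CPM in NDUFA5 KO and had 18.7 to 39.6 CPM at ZT2.

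Other genes were low in NDUFA5 KO at ZT0. Pp3c7_400, first by the rule, had 11, 13.5, 17.5 and 17.6 CPM there, against 62.6, 73.6, 81.3, 93.8 and 95.9 in COX11 KO and 82.7 to 156 in WT. Its libraries did not overlap with either other genotype, and the knockouts differed by 2.47 ± 0.246 (adjusted p = 1.9e-11). At ZT2 the gene had 12.9 to 27.2 CPM in NDUFA5 KO and 13.2 to 30.4 in COX11 KO. The change from ZT0 to ZT2 in NDUFA5 KO was 0.37 ± 0.244 (adjusted p = 0.188), and the change in COX11 KO minus that in NDUFA5 KO was -2.48 ± 0.328 (adjusted p = 1.02e-07). Pp3c20_20860 was at 0.404 to 1.45 CPM in NDUFA5 KO and 4.27 to 19.7 in COX11 KO (3.39 ± 0.51, adjusted p = 2.9e-07), and WT had 22.7 to 71.9. Pp3c24_30 differed by 2.88 ± 0.366 (adjusted p = 7.75e-09), with 62.2 ± 16.2 CPM in COX11 KO, 8.44 ± 1.6 in NDUFA5 KO and 20.8 ± 10.9 in WT.

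At ZT2, 52 genes were lower in COX11 KO than in NDUFA5 KO and 17 higher (15.2% and 13.6% of all genes), with a median difference of -0.23. Within letter Z these were 14 and 6 (3.67% and 3.68% of all genes). Among the higher, Pp3c16_15130 had 5.62 to 11.9 CPM in COX11 KO and 1.12 to 2.25 in NDUFA5 KO (2.39 ± 0.35, adjusted p = 1.17e-06). At ZT6, 12 were lower and 35 higher (8.49% and 9.91% of all genes), with a median of 0.17. Within letter Z, 10 were lower and 26 higher at ZT6, beside 7.34% and 8.31% of all genes. Among those higher in COX11 KO at ZT6 was Pp3c17_5320, with 11.9 to 31.5 CPM against 3.48 to 7.18 (2.10 ± 0.336, adjusted p = 1.93e-05). The libraries of the knockouts did not overlap for either gene.

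The change from ZT0 to ZT2 was tested for a difference between the knockouts. It was more negative in COX11 KO in 16 genes and less negative or more positive in 46 (18% and 17.5% of all genes), with a median difference of 0.28. With library totals the counts were 28 and 40, and the shares of all genes above do not apply to that scaling. The median difference was then -0.03, so its direction turned. Relative to all genes the difference was 0.36 with TMM and 0.35 with library totals. From ZT2 to ZT6 the counts were 10 and 44 (8.64% and 10.4% of all genes), with a median of 0.35. Within letter Z, where COX11 KO has 1 library at ZT2, the median was 0.445, and fewer genes were called in either direction. Pp3c21_9570 differed by 4.23 ± 0.355 at the first step (adjusted p = 1.23e-12), going from 238 to 357 CPM at ZT0 to 6.92 to 13.6 at ZT2 in NDUFA5 KO.

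Levels of the knockouts beside WT are a description, since WT chose the genes. The median difference of COX11 KO from WT was -0.68 log2 units at ZT0, -0.49 at ZT2 and -0.19 at ZT6, and 131 of the 150 genes had the lower estimate at ZT0. Over all genes these medians were 0.003, 0.004 and -0.03. The rule took genes with high WT values at ZT0, which by itself favours a lower knockout estimate at that time. For NDUFA5 KO the medians of the 150 genes were -0.06, -0.23 and -0.21. At ZT0 the quartiles were -1.14 and 1.16 in NDUFA5 KO, on both sides of WT, and -1.15 and -0.25 in COX11 KO. Group means ran up to 1890 CPM in NDUFA5 KO at ZT0, and 18 genes were under 10 CPM in each knockout at that time.

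A pair of genes had few counts in the knockouts. Pp3c1_11310 had 1.72 to 83.2 CPM in WT at ZT0, with a mean of 32.9 ± 27.7, and 0, 0, 0, 0.229 and 0.308 CPM in COX11 KO. In NDUFA5 KO at ZT2 it had 6.9 and 10.8 CPM in line 48, the libraries of letter A, and 0, 0 and 0.187 in line 46. Pp3c14_25720 had 18.7 ± 14.9 CPM in WT at ZT0 and 0 counts in the 5 COX11 KO libraries at ZT2, and again 1.29 and 1.73 CPM in line 48 against 0 to 0.181 in line 46. For Pp3c1_11310 the knockouts held 1 and 108 counts at ZT2, a ratio of 123 between them (95% interval 21.6 to 4910), and for Pp3c14_25720 COX11 KO was at least 7.6-fold lower than NDUFA5 KO, against a floor of 3 counts over the group. Within letter Z, which leaves line 46 at ZT2, the difference for Pp3c1_11310 turned to 1.09 with an adjusted p of 0.924. For Pp3c14_25720 the second step differed between the knockouts by 6.88 (adjusted p = 0.0414), and by 2.96 with an adjusted p of 1.0 without the COX11 KO ZT6 library 150-2, the only one of its group with a count. The call was lost in 13 of 29 fits that left out 1 library, with the replicate block (adjusted p = 0.0763), without the filter on low counts (adjusted p = 0.0536) and within letter Z (adjusted p = 0.611).

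The members Pp3c3_9640 and Pp3c3_9650 have successive IDs and were looked at for that reason. Pp3c3_9650 had 607, 641, 731 and 752 CPM in NDUFA5 KO at ZT0, 190 to 256 in COX11 KO and 179 to 340 in WT, with no overlap between NDUFA5 KO and the others. At ZT0 the knockouts differed by -1.66 ± 0.18 (adjusted p = 1.77e-10). Pp3c3_9640 had 41.4 to 69.7 CPM in NDUFA5 KO and 38.2 to 58.9 in COX11 KO at ZT0, which overlapped (-0.25 ± 0.205, adjusted p = 0.303). Both genes fell at the first step of both knockouts, and at the second Pp3c3_9650 fell in NDUFA5 KO alone of the 4 tests (-0.43 ± 0.173, adjusted p = 0.0325).

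Counting bears on a few members. Pp3c5_18790 and Pp3c5_18804 had equal counts in 22 of 47 libraries and differed by at most 7 counts in the rest, at 142 to 996 counts. Their counts were not whole in 29 libraries, so reads may be shared between both IDs and their separate levels are uncertain. They show 1 pattern: 135 ± 12.2, 59 ± 7.19 and 40.2 ± 2.04 CPM in WT, and 77.4 ± 11.6, 33.9 ± 2.59 and 33.7 ± 4.16 in COX11 KO for Pp3c5_18790. Taken as 1 gene they lower each count above by at most 1. Pp3c23_3810 had non-whole counts in 26 libraries, as did its neighbour Pp3c23_3820, which is no member, and its values are uncertain to that extent. In all, 8 of the 150 genes had counts that were not whole, by a tolerance of 1e-06.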

How the data were processed

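Messenger RNA was measured by 3′ tag sequencing (QuantSeq, which reads the polyadenylated end) in 47 libraries of WT, COX11 KO and NDUFA5 KO moss. The deposited table holds estimated counts per gene: 2.35% of its values were not whole. The submitters' processing notes list HTSeq 2.0.2, Bowtie2 2.2.5 and SAMtools 1.6. A genome build is stated in none of the sources used. The test had been chosen for raw counts, so values were rounded before fitting. The 5 summary lines held 26.2% to 39.9% of each library and were left out, and 10 value columns that match no sample were not used. None of the gene IDs was found among 27567 reference genes, so names, products, promoters and proteins were not used here.

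The members and the lists were chosen with earlier results of these data known. WT libraries chose the genes, so WT values and differences from WT have no test. One edgeR 4.0.16 quasi-likelihood model (R 4.3.3) with 1 mean per group of genotype and time (9 in all) covered the genes kept by filterByExpr (18460), with TMM factors and Benjamini-Hochberg adjustment per contrast, and genes were called at 0.05. The biological coefficient of variation was 21.8%. Printed CPM use TMM-scaled totals. The rule used column totals with a pseudocount of 1. Intervals (95%) and the floor of 3 counts cover counting error only.

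Genes were named by rule: the first 6 and the last 2 of the list, the next 2 outside it, the 2 most abundant in WT at ZT0, and in each contrast up to 2 with the largest and 2 with the smallest change among called genes above an average log2 CPM of 1 whose libraries lay on one side of the other group's mean (no such condition for differences of change). Others named are said to have been chosen after their values were seen. The fitting was tested on simulated data. Alternatives were DESeq2 1.42.0, other scalings, the code letter as a covariate, no filter on low counts, knockout libraries alone, code letter Z alone, a block for the replicate number, all 179 genes and leaving out each library. Taking 2 near-identical IDs as 1 gene was added after seeing the data.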

Additional observations from a re-analysis of the deposited data

Results flagged for a closer look

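Single libraries stood apart from the rest of their group in 29 of 288 groups searched, by a gap that chance gives in about 1 in 20 groups. Where every other library of a group was at 0 CPM, any count stands apart, so that rate does not apply there. In COX11 KO the lowest libraries were those of Pp3c22_21630 at ZT2 (33.2 CPM, library 152-2), Pp3c24_30 at ZT0 (34.1 CPM, 152-1) and Pp3c14_23460 at ZT6 (202 CPM, 150-1). The highest there were those of Pp3c13_12610 at ZT6 (12.9 CPM, 152-3) and Pp3c24_30 at ZT6 (10 CPM, 152-3). Library 150-2 alone held counts at ZT6 for Pp3c8_4130 (0.956 CPM), Pp3c1_11310 (1.53 CPM) and Pp3c14_25720 (1.72 CPM), and 150-3 alone at ZT2 for Pp3c1_11310 (0.152 CPM).

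In NDUFA5 KO at ZT6, library 48-2 was high for Pp3c22_21630 (23.5 CPM), and 48-1 for Pp3c22_22960 (42.9 CPM), Pp3c17_5320 (7.18 CPM) and Pp3c14_25720 (0.41 CPM), while 46-3 was low for Pp3c3_29500 (3.79 CPM). At ZT2, 48-1 was high for Pp3c20_20860 (10.1 CPM) and Pp3c26_15000 (33.8 CPM). At ZT0, 46-2, the deepest library, was high for Pp3c8_4130 (7.63 CPM) and Pp3c18_7090 (405 CPM) and had the lowest median over the 150 genes (5.97 on the log2 scale). Pp3c14_25720 was highest in 46-1 at ZT0 (0.208 CPM), and Pp3c1_11310 was at 0.0 CPM in 48-2.

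In WT the libraries that stood apart were the highest for Pp3c1_470 (184 CPM) and Pp3c14_20840 (9.35 CPM) at ZT2, for Pp3c8_4130 (9.78 CPM), Pp3c3_37540 (4.16 CPM) and Pp3c1_11310 (25.9 CPM) at ZT6, and for Pp3c16_15130 (98.2 CPM) at ZT0. The lowest were those of Pp3c7_13080 at ZT2 (17.2 CPM) and Pp3s128_50 at ZT6 (408 CPM).

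The change over a step differed between the knockouts in 31 tests of named genes, given as the log2 change in COX11 KO minus that in NDUFA5 KO. From ZT0 to ZT2 it was negative for Pp3c7_400 (-2.48), Pp3c16_14400 (-3.61), Pp3c3_37540 (-1.16), Pp3c20_20860 (-3.19) and Pp3c24_30 (-2.53). Over that step it was positive for Pp3c1_24420 (1.25), Pp3c1_25080 (2.81), Pp3c22_22960 (2.68), Pp3c21_9570 (4.23), Pp3c3_29500 (1.11), Pp3c15_8180 (3.90), Pp3c18_7090 (2.85), Pp3c14_20840 (3.67) and Pp3c17_5320 (4.62). From ZT2 to ZT6 it was negative for Pp3c1_24420 (-1.24), Pp3c3_37540 (-2.52) and Pp3c16_15130 (-2.73). It was positive for Pp3c1_25080 (1.75), Pp3c13_12610 (0.94), Pp3c22_2520 (1.12), Pp3c22_22960 (1.8), Pp3c21_9570 (1.99), Pp3c3_32550 (1.66), Pp3c3_29500 (1.11), Pp3c18_7090 (2.91), Pp3c13_5870 (4.77), Pp3c7_13080 (2.91), Pp3c14_20840 (1.95), Pp3c17_5320 (2.44), Pp3c14_25720 (6.88) and Pp3s128_50 (1.15).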

How the results depend on the processing

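Of 1338 alternative values of the 35 counts and medians, 1314 kept their direction and stayed within the limits set for a change, and 24 did not. For the log2 changes of named genes, 1553 of 1582 alternative values kept the call, 28 lost it and 1 turned direction. With code letter Z alone, the COX11 KO counts became 58 lower from ZT0 to ZT2, 20 lower and 2 higher from ZT2 to ZT6 (median -0.395), and 3 higher from ZT0 to ZT6. COX11 KO against NDUFA5 KO then gave 14 lower and 6 higher at ZT2, and 4 and 17 for the second step. Pp3c1_11310 turned to 1.09 at ZT2. With library totals only, NDUFA5 KO had 13 higher from ZT0 to ZT2 (median -0.945) and a median of -1.65 from ZT0 to ZT6. The knockouts then differed at ZT0 with 37 higher (median -0.297), and at the first step with 28 lower and a median of -0.032, the opposite direction. Knockout libraries alone gave 1 gene higher in COX11 KO from ZT0 to ZT2, as did all 179 genes, which gave 8 higher from ZT0 to ZT6. Leaving out each library moved the 5 higher genes of COX11 KO from ZT0 to ZT6 between 2 and 6. The cause was not tested.

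Replicate numbers did not pair libraries: 6 of 40 same-number pairs correlated above 0.1, the median was -0.0484, and in 9 of 80 searches (each library against another time) the best match had the same number. With a replicate block, 2 genes were higher in COX11 KO from ZT0 to ZT6, and the other counts stayed within 1.5 times. Of the named genes the block ended the calls of Pp3c3_29500 in COX11 KO from ZT0 to ZT6 (adjusted p = 0.132) and of Pp3c14_25720 for the second step (adjusted p = 0.0763). The block is nested in genotype, so the knockouts could not be compared at one time with it. Recomputing the rule without each WT library kept 130 to 146 of the 150 genes. Genes with few counts, such as Pp3c14_25720 and Pp3c1_11310, are limited by depth.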
